A study of Mus musculus with 12 samples.

Results

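The Bcl2 family decides whether a cell lives or dies by the mitochondrial pathway of apoptosis, and 10 of its mouse genes are described here across B cell activation and plasmablast differentiation. They were chosen by name, as the rows of the count table whose Entrez Gene ID belongs to each symbol, out of 27179 genes. They comprise the 5 pro-survival genes Bcl2, Bcl2l1, Mcl1, Bcl2a1b and Bcl2a1d, the 3 BH3-only genes Bcl2l11, Bbc3 and Pmaip1, and the 2 effectors Bax and Bak1. All 10 were found and all 10 passed the filter on low counts, which left 12750 genes for testing. The lowest count of any of them in any library was 78, for Bbc3 in a naive library, so that counting error was small throughout.

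Pro-survival proteins hold the effectors Bax and Bak in check on the outer membrane of the mitochondrion. BH3-only proteins are made or released in response to stress or loss of growth signals and bind the pro-survival proteins, and some also bind the effectors directly. Once freed, the effectors form pores through which cytochrome c leaves and starts the caspase cascade. In B cells the family is known for its part in the turnover of resting cells, in clonal expansion and in the lifespan of antibody-secreting cells, and its members are known to be controlled at the level of protein as well as RNA.

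RNA-Seq was performed on polyA RNA from splenic B cells of male C57BL/6 Pep3b mice 6 to 12 weeks of age, with 2 biological replicates for each of 6 stages. Naive cells were resting and received no lipopolysaccharide (LPS), a bacterial product that activates B cells through Toll-like receptor 4. All other cells were given 25 µg/ml LPS, and were sorted as undivided cells at 3, 10 and 33 h or, on day 4, as plasmablasts (CD138 positive, CD22 negative) and expanded B cells (the converse). Naive cells were sorted from splenocytes, activated cells were first purified by negative selection, and the day 4 cultures were seeded at a lower density than the others. These steps of handling went with the stages and cannot be told apart from them.

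Total counts per library ran from 23026619 to 60585587. The labelled stages were checked against marker genes, as CPM, the counts scaled to the library total. The 6 B cell markers summed to 9671 and 10010 CPM in naive cells and to 2045 and 2102 CPM in plasmablasts, whereas the 5 plasma cell markers summed to 361.7 and 388.9 CPM in naive cells and to 16400 and 16910 CPM in plasmablasts. The naive libraries also held RNA of other cells. All 7 myeloid markers were detected there, summing to 122.4 and 280.6 CPM against 0.217 to 37.4 CPM in the other 10 libraries, where Lyz2, S100a8 and S100a9 were at or near 0 and Itgam and Adgre1 made up nearly all of the sum. The 5 erythroid markers measured summed to 146.1 and 196 CPM in naive libraries and to at most 2.12 CPM elsewhere, and the 5 NK cell markers to 16.1 and 18.8 CPM against at most 5.14. The 7 T cell markers summed to 67.5 and 71.2 CPM in naive libraries and to 12.2 to 39.9 CPM elsewhere, most of it Lck, with Cd3e at most at 0.235 CPM. The part of these cells in the naive levels was not tested.

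Levels are given as RPKM, the counts scaled for exon length and for the TMM-scaled library size, which allows genes to be compared with each other. They are levels relative to the other RNA of a library, not per cell. In bulk samples such as these, fewer cells of a type and less RNA per cell cannot be told apart. Stages were compared on log2 fold changes, and a gene was called changed where edgeR's glmTreat placed its change above 1.5-fold with an adjusted p under 0.05. Consecutive comparisons share a stage, so a high level at 3 h enters both the rise before it and the fall after it.

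**Figure D1:**
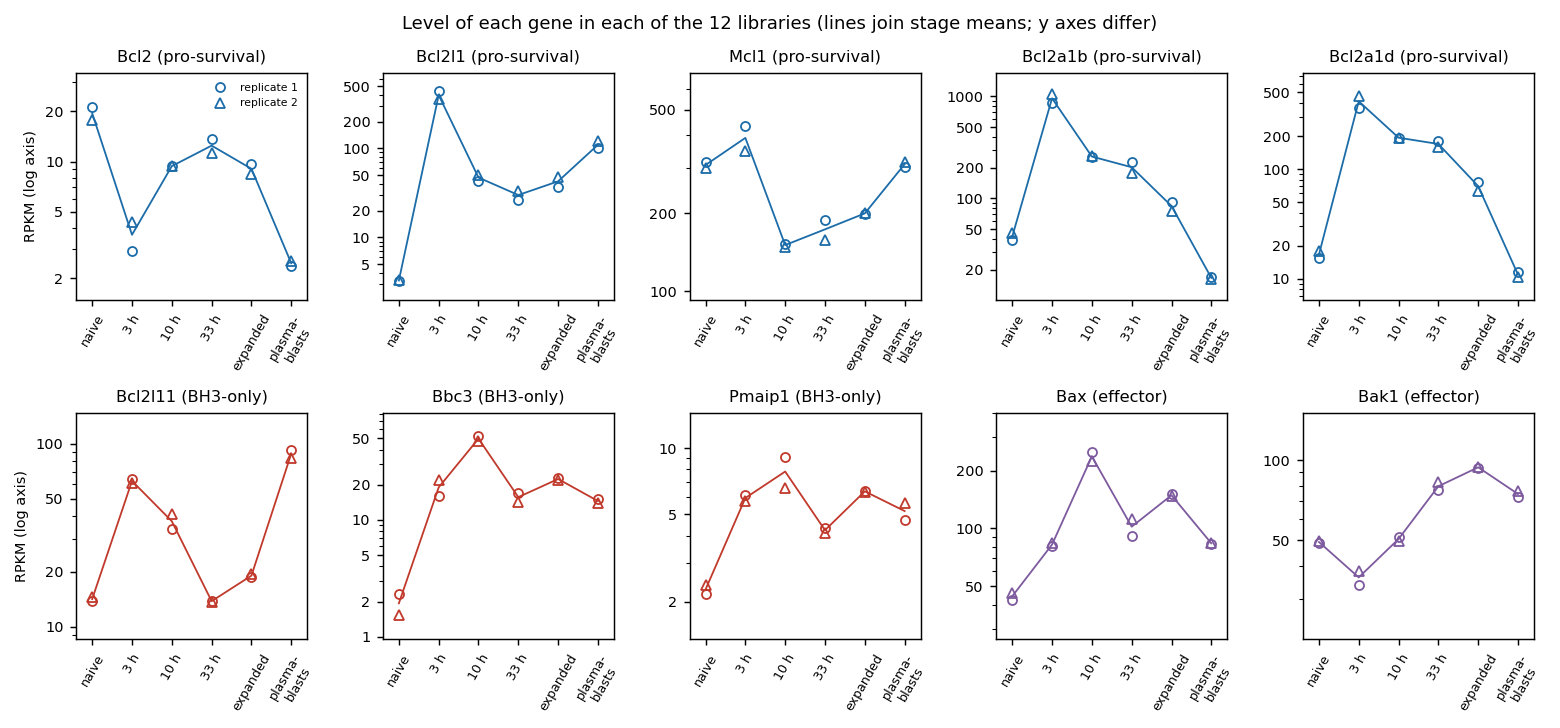
RPKM (log axis, scale differing between panels) of each of the 10 genes in each of the 12 libraries by stage, with circles for replicate 1, triangles for replicate 2 and lines through the stage means. Bcl2l1, Bcl2a1b and Bcl2a1d peak at 3 h, Bbc3 and Bax at 10 h, and Bcl2l11 in plasmablasts, while Bcl2 is highest in naive cells.

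Of the 10 genes, 8 differed between naive cells and 3 h. Between naive and 3 h, 7 rose (Bcl2l1, Bcl2a1b, Bcl2a1d, Bcl2l11, Bbc3, Pmaip1 and Bax) and 1 fell (Bcl2), beside 45.3% of all tested genes called, 21% up and 24.3% down. The libraries of both stages stood apart in other respects. Mitochondrial genes, which were removed before testing, took 10.28% and 11.55% of the counts of the naive libraries against 4.94% to 8.47% in the other 10, and the log2 ratios between replicates had the largest SD at 3 h, 0.529 against 0.303 to 0.385 in the other stages. Their part in the differences between naive and 3 h was not tested. From 3 to 10 h, 3 rose (Bcl2, Bbc3 and Bax) and 4 fell (Bcl2l1, Mcl1, Bcl2a1b and Bcl2a1d), with 30.8% of all genes called, 17.4% up and 13.4% down. From 10 to 33 h, none rose and 3 fell (Bcl2l11, Bbc3 and Bax), with 14.5% of all genes called, 10.1% up and 4.45% down. From 33 h to expanded B cells, none rose and 2 fell (Bcl2a1b and Bcl2a1d), with 10.6% of all genes called, 6.94% up and 3.66% down. Between expanded B cells and plasmablasts, 2 rose (Bcl2l1 and Bcl2l11) and 4 fell (Bcl2, Bcl2a1b, Bcl2a1d and Bax), with 26.1% of all genes called, 13.9% up and 12.2% down. The share called among the 10 was above the background in each of these 5 comparisons, and because the genes were chosen by name with earlier results known it is given as a description.

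**Figure D2:**
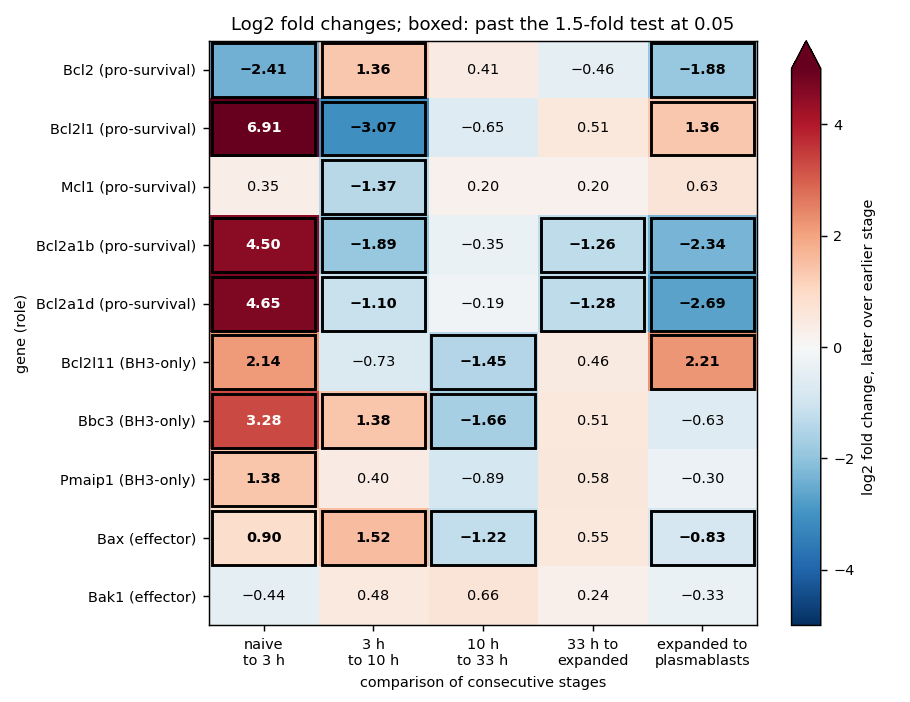
Log2 fold changes (later over earlier stage) of the 10 genes, in rows, in the 5 comparisons of consecutive stages, in columns, with red for higher and blue for lower in the later stage. Boxes mark the changes past the 1.5-fold test, of which 8 lie in the first column, 7 in the second, 3 in the third, 2 in the fourth and 6 in the fifth.

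Bcl2l1 (Entrez Gene 12048, chr2:152758732-152833803, mm10), which encodes the pro-survival protein Bcl-xL, had the largest change of the 10 genes. Its levels were 3.21 and 3.37 RPKM in naive cells, 435 and 356 RPKM at 3 h, 43.5 and 50.6 RPKM at 10 h, 26.3 and 33.6 RPKM at 33 h, 37.1 and 48.3 RPKM in expanded B cells and 99.9 and 119 RPKM in plasmablasts. Both 3 h libraries lay above all others and both naive libraries below all others. The rise from naive to 3 h was 6.91 ± 0.21 (SE) on the log2 scale, a 120-fold difference (glmTreat adjusted p = 2.4e-10), and the fall from 3 to 10 h was -3.07 ± 0.17 (glmTreat adjusted p = 9.5e-08). The change from 10 to 33 h (-0.65 ± 0.16) and that from 33 h to expanded B cells (0.51 ± 0.16) did not pass the 1.5-fold test. Plasmablasts were then 1.36 ± 0.16 higher than expanded B cells (glmTreat adjusted p = 0.00029) and 5.06 ± 0.19 higher than naive cells, so that Bcl2l1 was at its second highest level in the terminal stage. In the order of stage means, 10 h and expanded B cells did not differ beyond their spread by the F-test, which has no fold threshold (0.14 ± 0.16 apart, edgeR adjusted p = 0.46), and the other 4 neighbouring pairs did.

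Bcl2 (Entrez Gene 12043, chr1:106538176-106714290), the founding pro-survival member, moved the other way at both ends of the process. Its levels were 21.2 and 17.8 RPKM in naive cells, 2.93 and 4.35 RPKM at 3 h, 9.38 and 9.41 RPKM at 10 h, 13.6 and 11.3 RPKM at 33 h, 9.67 and 8.45 RPKM in expanded B cells and 2.38 and 2.54 RPKM in plasmablasts. The naive libraries were the 2 highest and the plasmablast libraries the 2 lowest, with the 3 h libraries next. Bcl2 fell by 2.41 ± 0.17 on the log2 scale from naive to 3 h (glmTreat adjusted p = 2.2e-07), rose by 1.36 ± 0.16 from 3 to 10 h (glmTreat adjusted p = 0.00032), and fell by 1.88 ± 0.17 between expanded B cells and plasmablasts (glmTreat adjusted p = 1.0e-05). The ratio of Bcl2l1 to Bcl2, both as RPKM, was lowest in naive cells (0.152 and 0.189) and highest at 3 h (149 and 81.9), with 42.0 and 47.1 in plasmablasts and between 1.93 and 5.72 in the 6 libraries from 10 h to expanded B cells. Of the 12 libraries, Bcl2 exceeded Bcl2l1 in the naive pair alone.

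Bcl2a1b and Bcl2a1d encode copies of the pro-survival protein A1, a target of NF-kB signalling that is known for its short life as a protein. The mouse has several near-identical copies, and those of chromosome 9 carry much of their sequence in common. Shown here are the stretches that lie before the annotated transcripts of both copies and align with each other (RefSeq, GRCm38.p6), for Bcl2a1d at chr9:88731915-88732050 on the minus strand and for Bcl2a1b at chr9:89199023-89199164 on the plus strand, with capitals at the bases that differ.
Bcl2a1d: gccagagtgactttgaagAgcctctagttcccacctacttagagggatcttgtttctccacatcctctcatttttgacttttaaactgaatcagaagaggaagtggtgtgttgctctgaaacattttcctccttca
Bcl2a1b: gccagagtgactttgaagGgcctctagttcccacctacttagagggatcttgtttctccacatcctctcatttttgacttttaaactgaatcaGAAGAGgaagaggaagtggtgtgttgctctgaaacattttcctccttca
Over 136 aligned bases the copies differed at 1, and Bcl2a1b held 6 more in a repeat. Both carry the letters TGAATCA, a match to TGANTCA, a loosened form of the AP-1 motif that takes any base at its centre. Read on both strands, this form was held by 6.75% of 32851 promoters in the 250 bases before their start. The transcripts are as alike. Bcl2a1b and Bcl2a1d differed at 7 of 817 aligned bases (99.1% identity), and 40.6% of all stretches of the read length, 81 bases, in the Bcl2a1b transcript and 65.8% in that of Bcl2a1d are found letter for letter in another copy. Reads from such stretches cannot be assigned to 1 copy, and the split between the copies is therefore uncertain. Whether such reads were counted is not given in the sources used here. The levels of both copies, and the shares and sums that include them, carry that limit.

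Both copies rose at 3 h and had a lower stage mean at each later stage. Bcl2a1b (Entrez Gene 12045, chr9:89199273-89207838) was at 39.2 and 45.4 RPKM in naive cells, 859 and 1051 RPKM at 3 h, 256 and 258 RPKM at 10 h, 228 and 176 RPKM at 33 h, 92.7 and 75.9 RPKM in expanded B cells and 17.0 and 16.3 RPKM in plasmablasts. Bcl2a1d (Entrez Gene 12047, chr9:88723288-88731850) was at 15.3 and 17.8 RPKM in naive cells, 362 and 468 RPKM at 3 h, 193 and 194 RPKM at 10 h, 179 and 160 RPKM at 33 h, 76.3 and 63.3 RPKM in expanded B cells and 11.4 and 10.3 RPKM in plasmablasts. In both, the plasmablast libraries lay below the naive ones and the 3 h libraries above all others.

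The rise to 3 h was 4.50 ± 0.16 for Bcl2a1b and 4.65 ± 0.15 for Bcl2a1d on the log2 scale (glmTreat adjusted p = 4.1e-10 and 2.4e-10). The fall passed the 1.5-fold test from 3 to 10 h (-1.89 ± 0.14 and -1.10 ± 0.13), from 33 h to expanded B cells (-1.26 ± 0.14 and -1.28 ± 0.13) and from there to plasmablasts (-2.34 ± 0.15 and -2.69 ± 0.15), and the difference from 10 to 33 h did not (-0.35 ± 0.14 and -0.19 ± 0.13). Plasmablasts ended 1.34 ± 0.15 below naive cells for Bcl2a1b (glmTreat adjusted p = 0.0001), while for Bcl2a1d the difference of -0.61 ± 0.15 did not pass (adjusted p = 0.35). With library size alone as the scaling, the fall of Bcl2a1d from 3 to 10 h was -0.78 and did not pass (adjusted p = 0.079), and its difference between naive cells and plasmablasts did (-0.89, adjusted p = 0.026). The counts of the copies were also summed into 1 gene, which avoids the split but not a loss of shared reads. The 5 consecutive changes were then 4.54, -1.59, -0.28, -1.26 and -2.50, and plasmablasts were 1.08 ± 0.14 below naive cells (glmTreat adjusted p = 0.00096). The ratio of Bcl2a1b to Bcl2a1d, both as RPKM, was 2.56 in both naive libraries, 2.37 and 2.25 at 3 h, 1.10 to 1.34 in the 6 libraries from 10 h to expanded B cells and 1.49 and 1.59 in plasmablasts.

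Mcl1 (Entrez Gene 17210, chr3:95656944-95663179) encodes a short-lived pro-survival protein that B cells need at many stages. It varied least among the pro-survival genes, by 2.59-fold between its highest and lowest stage means. Its levels were 314 and 299.9 RPKM in naive cells, 433 and 348 RPKM at 3 h, 153 and 149 RPKM at 10 h, 189 and 158 RPKM at 33 h, 199 and 200.4 RPKM in expanded B cells and 302 and 316 RPKM in plasmablasts. The libraries from 10 h to expanded B cells all lay below the other 6. The fall from 3 to 10 h (-1.37 ± 0.11, glmTreat adjusted p = 9.8e-06) was the one consecutive change that passed the 1.5-fold test, and the step from expanded B cells to plasmablasts was 0.63 ± 0.11 (adjusted p = 0.38). Naive cells and plasmablasts were 0.01 ± 0.11 apart, with overlapping libraries (edgeR F-test adjusted p = 0.94).

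**Figure D3:**
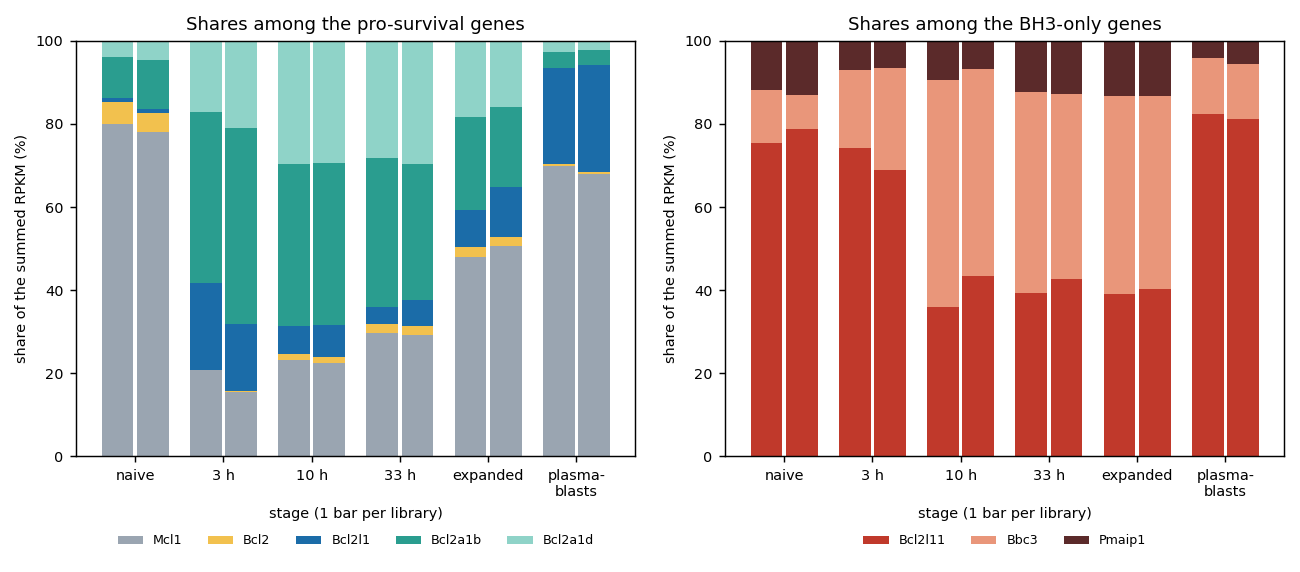
Share of each gene (%) in the summed RPKM of the 5 pro-survival genes (left) and of the 3 BH3-only genes (right), 1 bar for each of the 12 libraries. Mcl1 holds the largest pro-survival share in naive cells and plasmablasts and the copies of Bcl2a1 from 3 to 33 h, and Bcl2l11 holds the largest BH3-only share in naive cells, at 3 h and in plasmablasts.

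Because the pro-survival genes moved in different directions, their make-up differed between the stages. Mcl1 took 79.0% ± 1.3 (SD, n = 2) of the summed pro-survival RPKM in naive cells, 18.2% ± 3.6 at 3 h, and on day 4 49.3% ± 1.8 in expanded B cells and 68.9% ± 1.3 in plasmablasts. Bcl2a1b and Bcl2a1d took 44.2% ± 4.3 and 19.2% ± 2.6 at 3 h, and 3.72% ± 0.29 and 2.42% ± 0.30 in plasmablasts. Bcl2l1 took 0.848% ± 0.041 in naive cells, 18.4% ± 3.4 at 3 h, 5.19% ± 1.48 at 33 h and 24.4% ± 1.8 in plasmablasts. Bcl2 took 5.02% ± 0.54 in naive cells and at most 2.33% in any library of a later stage. These shares describe RNA. With 2 libraries a stage an exact permutation test between any pair of stages cannot give a p below 0.333, and none was made on the shares.

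Bcl2l11 (Entrez Gene 12125, chr2:128126038-128162547) encodes Bim, the BH3-only protein known to limit the survival of lymphocytes. Its levels were 13.9 and 14.4 RPKM in naive cells, 63.9 and 61 RPKM at 3 h, 34.2 and 41.1 RPKM at 10 h, 13.9 and 13.7 RPKM at 33 h, 18.7 and 19.3 RPKM in expanded B cells and 92.3 and 83.8 RPKM in plasmablasts. The plasmablast libraries were the highest, followed by those of 3 h, and the 33 h libraries lay at the naive level. Bcl2l11 rose by 2.14 ± 0.10 on the log2 scale to 3 h (glmTreat adjusted p = 6.4e-09), fell by 1.45 ± 0.10 from 10 to 33 h (glmTreat adjusted p = 2.6e-06), and rose by 2.21 ± 0.10 from expanded B cells to plasmablasts (glmTreat adjusted p = 1.4e-08). The step from 3 to 10 h was -0.73 ± 0.10 (adjusted p = 0.068), which lay on the other side of the threshold with DESeq2's size factors (adjusted p = 0.018), without replicate 2 of 10 h (0.012) or without either plasmablast library (0.046 each). Naive cells and 33 h did not differ beyond their spread (edgeR F-test adjusted p = 0.74), and in the other 4 neighbouring pairs of the order they did.

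Bbc3 and Pmaip1 encode the BH3-only proteins Puma and Noxa, both known as products of p53 target genes. Bbc3 (Entrez Gene 170770, chr7:16308398-16318334) was at 2.33 and 1.53 RPKM in naive cells, 16.1 and 21.9 RPKM at 3 h, 51.9 and 47.4 RPKM at 10 h, 17.1 and 14.3 RPKM at 33 h, 22.7 and 22.2 RPKM in expanded B cells and 15.2 and 13.9 RPKM in plasmablasts. Both 10 h libraries exceeded every other library and both naive libraries were below every other. It rose by 3.28 ± 0.19 to 3 h (glmTreat adjusted p = 2.8e-08) and by a further 1.38 ± 0.16 to 10 h (glmTreat adjusted p = 0.00024), then fell by 1.66 ± 0.16 to 33 h (glmTreat adjusted p = 5.5e-05), and the later steps of 0.51 ± 0.16 and -0.63 ± 0.16 did not pass the 1.5-fold test, though the last one did with library size alone (-0.97, adjusted p = 0.023).

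Pmaip1 (Entrez Gene 58801, chromosome 18) was, in mean RPKM, the lowest of the 10 genes in expanded B cells and at 10 and 33 h. Its levels were 2.17 and 2.38 RPKM in naive cells, 6.09 and 5.77 RPKM at 3 h, 9.06 and 6.58 RPKM at 10 h, 4.35 and 4.12 RPKM at 33 h, 6.38 and 6.33 RPKM in expanded B cells and 4.69 and 5.65 RPKM in plasmablasts. The naive libraries were the lowest 2. Its rise to 3 h of 1.38 ± 0.17 passed the 1.5-fold test (glmTreat adjusted p = 0.00015). In the order of stage means, the 4 neighbouring pairs after naive did not differ beyond their spread, with F-test adjusted p from 0.1 to 0.57, but stages farther apart in that order did. By edgeR's F-test, without a fold threshold, the level at 33 h was below that at 10 h (adjusted p = 0.00045), in expanded B cells (0.0089) and at 3 h (0.014), plasmablasts were below 10 h (0.0035), and 10 h was above 3 h (0.036). By the 1.5-fold test the fall from 10 to 33 h, -0.89 ± 0.15, did not pass (glmTreat adjusted p = 0.061), and it passed with library size alone as the scaling (0.033), with the removed gene classes kept (0.045), without replicate 1 of 3 h (0.048) or without replicate 2 of 10 h (0.011).

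Among the 3 BH3-only genes, Bcl2l11 took 77.1% ± 2.3 (SD, n = 2) of the summed RPKM in naive cells and 71.5% ± 3.8 at 3 h, 39.6% ± 5.2 at 10 h, and 81.7% ± 0.8 in plasmablasts. Bbc3 took 10.5% ± 3.1 in naive cells, 52.2% ± 3.4 at 10 h, and on day 4 47% ± 0.8 in expanded B cells and 13.4% ± 0.07 in plasmablasts. Bbc3 thus held the larger share in both 10 h libraries, both 33 h libraries and both libraries of expanded B cells, and Bcl2l11 in the other 6. In replicate 2 of 33 h the shares were close, 44.5% for Bbc3 and 42.7% for Bcl2l11. This order rests on the scaling for exon length, 5037 bases for Bcl2l11 and 1976 for Bbc3. In counts not scaled for length, Bcl2l11 exceeded Bbc3 in all 12 libraries.

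Bax (Entrez Gene 12028, chr7:45461695-45466903) and Bak1 (Entrez Gene 12018, chr17:27019812-27028627) encode the pore-forming effectors, which are known to stand in for each other in many cells. Bax was at 42.5 and 46 RPKM in naive cells, 80.7 and 84.0 RPKM at 3 h, 251 and 223 RPKM at 10 h, 91.8 and 112 RPKM at 33 h, 150.3 and 147 RPKM in expanded B cells and 83.2 and 83.9 RPKM in plasmablasts. The 10 h libraries were the highest and those of expanded B cells next, without overlap. Bax rose by 0.90 ± 0.11 to 3 h (glmTreat adjusted p = 0.0036) and by 1.52 ± 0.11 to 10 h (glmTreat adjusted p = 2.0e-06), and fell by 1.22 ± 0.10 to 33 h (glmTreat adjusted p = 6.8e-05). With library size alone as the scaling, the rise to 3 h was 0.69 and did not pass (adjusted p = 0.12), nor did the difference of 0.92 ± 0.11 between naive cells and plasmablasts, which came to 0.63 (adjusted p = 0.23). The fall of 0.83 ± 0.10 from expanded B cells to plasmablasts (glmTreat adjusted p = 0.018) did not pass with DESeq2's Wald test (adjusted p = 0.295), without replicate 1 of the expanded B cells (0.069) or without replicate 1 or 2 of the plasmablasts (0.093 and 0.083).

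Bak1 was at 48.6 and 49.9 RPKM in naive cells, 34.0 and 38.5 RPKM at 3 h, 51.5 and 49.6 RPKM at 10 h, 77.0 and 82.6 RPKM at 33 h, 93.7 and 94.5 RPKM in expanded B cells and 72.7 and 76.6 RPKM in plasmablasts. The 3 h libraries were the lowest and those of expanded B cells the highest. None of its 5 consecutive changes passed the 1.5-fold test (-0.44 to 0.66 on the log2 scale), though by edgeR's F-test, without a fold threshold, adjusted p ran from 4.5e-05 to 0.0045 in 4 of them and was 0.04 from 33 h to expanded B cells. With library size alone, its change from 3 to 10 h came to 0.81 and passed (adjusted p = 0.013). Expanded B cells were 0.93 ± 0.09 above naive cells (glmTreat adjusted p = 0.00044). Bax made up 82.4% ± 0.8 (SD, n = 2) of the summed RPKM of the effectors at 10 h and 47.3% ± 1.0 in naive cells.

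Bax, Bbc3 and Pmaip1 followed each other over the libraries. Pearson's correlation of log2 CPM over the 12 libraries, which share 6 stages, was 0.943 between Bbc3 and Pmaip1, 0.901 between Bbc3 and Bax and 0.858 between Pmaip1 and Bax, against 0.25 between Bax and Bak1 and 0.398 between Bbc3 and Bcl2l11. Other members came nearer, with 0.725 between Bcl2l1 and Pmaip1, 0.671 between Bcl2l1 and Bbc3 and 0.595 between Bcl2a1d and Bbc3. The promoters of Bax and Bbc3 are shown because both genes were highest at 10 h and both promoters hold an E-box, the letters CACGTG bound by Myc and related factors, in the 250 bases before an annotated start (RefSeq, GRCm38.p6). The stretch of Bax lies at chr7:45466899-45467148 on the minus strand and that of Bbc3, before 1 of its 3 annotated starts, at chr7:16310181-16310430 on the plus strand, each printed up to the base before the start with the E-box in capitals. The span given above for the Bax gene reaches 45466903, so that the stretch overlaps its end, which falls within the E-box.
Bax: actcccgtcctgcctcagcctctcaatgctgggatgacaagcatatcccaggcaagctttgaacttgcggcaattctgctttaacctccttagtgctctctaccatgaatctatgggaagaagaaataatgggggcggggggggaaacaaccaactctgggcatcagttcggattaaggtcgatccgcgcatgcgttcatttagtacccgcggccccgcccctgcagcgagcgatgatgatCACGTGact
Bbc3: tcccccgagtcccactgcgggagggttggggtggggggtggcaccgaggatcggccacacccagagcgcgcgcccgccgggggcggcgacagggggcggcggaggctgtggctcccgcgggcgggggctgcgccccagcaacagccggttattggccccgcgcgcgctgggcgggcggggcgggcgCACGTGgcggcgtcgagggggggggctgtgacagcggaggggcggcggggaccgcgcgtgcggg
Of all 32851 promoters, 6.02% held an E-box in a window of this length. A match to the p53 half-site consensus, AGGCAAGCTT, lies in the same Bax window, and 7.13% of all promoters held one. A match to the NF-kB consensus lay in 1 of the 3 windows of Bbc3 (GGGAAACCCC) and 1 of the 3 of Bcl2l1 (GGGGGTCTCC), against 3.9% of all promoters. That window of Bcl2l1 lies before a RefSeq start but within the gene, in an untranslated exon of another annotated transcript (GENCODE). The Bbc3 windows with the NF-kB match and with the printed E-box also lie within the span of their gene, chr7:16308398-16318334. Windows were found for 9 of the 10 genes, 14 in all, and none of them matched the CRE motif TGACGTCA, which 1.55% of all promoters held. These matches are descriptions of the letters and not sites shown to be bound.

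**Figure D4:**
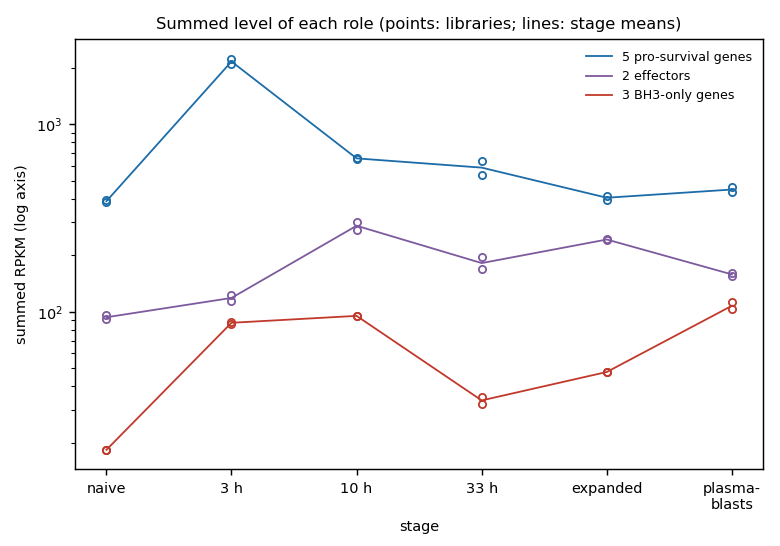
Summed RPKM (log axis) of the 5 pro-survival genes, the 2 effectors and the 3 BH3-only genes by stage, with a point for each of the 12 libraries and lines through the stage means. The pro-survival sum peaks at 3 h, the effector sum at 10 h, and the BH3-only sum is high at 3 h, 10 h and in plasmablasts.

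Summed over the genes, pro-survival RNA was at 384 to 393 RPKM in naive cells, 2092 and 2228 RPKM at 3 h, 655 and 660.3 RPKM at 10 h, 636 and 538 RPKM at 33 h, 415 and 396 RPKM in expanded B cells and 433 and 464 RPKM in plasmablasts. The BH3-only sum was 18.4 RPKM in both naive libraries, 86.2 and 88.6 RPKM at 3 h, 95.2 and 95.1 RPKM at 10 h, 35.3 and 32.1 RPKM at 33 h, 47.7 and 47.8 RPKM in expanded B cells and 112 and 103 RPKM in plasmablasts. Both sums were thus higher at 3 h than in naive cells, and at 10 h the pro-survival sum was lower again while the BH3-only sum was not. The ratio of the pro-survival to the BH3-only sum was 4.18 ± 0.45 (SD, n = 2) in plasmablasts, the lowest of the stages, against 8.49 ± 0.29 in expanded B cells. Before division it was 21.2 ± 0.3 in naive cells, 24.7 ± 0.6 after 3 h, 6.91 ± 0.05 after 10 h and 17.4 ± 0.9 after 33 h. The BH3-only sum leaves out Bid, Bmf and Bad, so that the ratio holds for the 3 genes summed and would differ with those added. In naive cells Bid, Bmf and Bad were at 26.65, 22.7 and 10.0 RPKM. From expanded B cells to plasmablasts, Bid went from 60.2 to 22.8 RPKM, Bmf from 14.6 to 24.2 RPKM and Bad from 13.45 to 14.4 RPKM. The sums add RNA of genes whose proteins differ in abundance and affinity, and the ratio is a description of RNA only.

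Set against naive cells, the day 4 populations shared part of their differences, and both comparisons use the same naive libraries. In expanded B cells 7 genes were higher (Bcl2l1, Bcl2a1b, Bcl2a1d, Bbc3, Pmaip1, Bax and Bak1) and Bcl2 lower, beside 47.2% of all genes called, 24.9% up and 22.2% down. In plasmablasts 5 were higher (Bcl2l1, Bcl2l11, Bbc3, Pmaip1 and Bax) and 2 lower (Bcl2 and Bcl2a1b), beside 50% of all genes called, 26.6% up and 23.4% down. Bcl2l11 was 2.64 ± 0.10 above naive in plasmablasts and 0.43 ± 0.10 above it in expanded B cells, and Bbc3 was 2.89 ± 0.19 and 3.52 ± 0.19 above it. Bcl2a1b was 0.997 ± 0.14 above naive in expanded B cells and 1.34 ± 0.15 below it in plasmablasts. When the 6 stages of each gene were put in order of their mean level, 32 of the 50 neighbouring pairs differed by the F-test, which has no fold threshold. Neighbours were set by each gene's own values, and the share of such pairs over all genes was not computed. The shares that follow are for fixed pairs of stages and are not a like-for-like background. Of all genes, the F-test called 71% between naive and 3 h, 67.7% between naive and 10 h, 71% between naive and 33 h, 73.1% between naive and expanded B cells and 74.1% between naive and plasmablasts. Against 3 h it called 77.4% in plasmablasts, 73.3% in expanded B cells, 70.5% at 33 h and 62.3% at 10 h. Against 10 h it called 72.2% in plasmablasts, 61.7% in expanded B cells and 45.5% at 33 h, against 33 h 67.4% and 39.6%, and between the day 4 populations 56.9%. The fewest differing neighbours were in Pmaip1 (1 of 5), Bbc3 and Mcl1 (2 of 5 each).

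Of 10 other genes of the family, 7 were tested (Bcl2l10, Hrk and Bok were too low). Among these, 3 rose and 2 fell from naive to 3 h, 2 rose and 1 fell in each of the next 2 comparisons, 1 rose and 1 fell from 33 h to expanded B cells, and 2 fell from there to plasmablasts. Over the same 5 comparisons 45.3%, 30.8%, 14.5%, 10.6% and 26.1% of all tested genes were called. Bcl2a1a, a further copy of A1, was at 1.77 RPKM in naive cells and 39.3 RPKM at 3 h, rose by 4.46 ± 0.21, and then declined to 0.997 RPKM in plasmablasts. Bcl2a1c had no count in naive cells and 9 and 21 counts at 3 h. Bcl2l2, which encodes the pro-survival protein Bcl-w, fell from 1.67 to 0.572 RPKM at 3 h, rose to 2.74 RPKM at 10 h and was highest in plasmablasts at 5.22 RPKM.

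Of the other BH3-only genes, Bid, whose product links death receptors to the mitochondrion, rose from 26.7 to 73.6 RPKM at 3 h (1.47 ± 0.09) and fell from 60.2 RPKM in expanded B cells to 22.8 RPKM in plasmablasts (-1.40 ± 0.10). Bmf fell from 12.3 RPKM at 10 h to 3.91 RPKM at 33 h (-1.64 ± 0.17) and rose to 14.6 RPKM in expanded B cells (1.89 ± 0.17), with 24.2 RPKM in plasmablasts and 22.7 RPKM in naive cells. Bad fell from 10.0 to 3.12 RPKM at 3 h (-1.67 ± 0.15) and rose in the 2 following steps. Bik stayed below 1 RPKM in every library. Bmf and Bcl2l11 both had their lowest stage mean at 33 h, though that of Bcl2l11 did not differ from its naive mean (edgeR F-test adjusted p = 0.74).

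Genes controlled by p53, a factor that stress activates, followed Bax and Bbc3 in part. Among p53 and 13 genes known as its targets, 6 rose and 2 fell from naive to 3 h, 7 rose and 2 fell from 3 to 10 h, 0 rose and 6 fell from 10 to 33 h, 5 rose and 0 fell from 33 h to expanded B cells, and 2 rose and 2 fell from there to plasmablasts, beside 45.3%, 30.8%, 14.5%, 10.6% and 26.1% of all tested genes called. The medians of the list over these comparisons were 1.36, 0.74, -1.06, 1.26 and -0.36 on the log2 scale, beside -0.03, 0.02, -0.02, -0.02 and -0.05 for all tested genes. Phlda3, a p53 target that restrains Akt, was at 0.342 and 0.291 RPKM at 3 h, 39.4 and 24.8 RPKM at 10 h, 3.03 and 4.41 RPKM at 33 h, and 17.8 and 15.7 RPKM in expanded B cells. Its changes were 6.68 ± 0.33, -3.12 ± 0.23 and 2.19 ± 0.22, and the 10 h libraries exceeded all others. Tnfrsf10b, a death receptor gene, rose by 3.25 ± 0.33 from 3 to 10 h, and Trp53inp1, which promotes p53 activity, rose by 3.42 ± 0.19 from expanded B cells to plasmablasts. Cdkn1a, the cell cycle inhibitor p21, which was picked after its values were seen, was at 3.67 RPKM at 3 h, 26.6 RPKM at 10 h, 4.85 RPKM at 33 h and 23.7 RPKM in expanded B cells. The 10 h libraries of Cdkn1a (32.4 and 20.7 RPKM) overlapped those of expanded B cells (24.05 and 23.4 RPKM). A maximum at 10 h was not shared by the whole list, as Trp53 had its highest mean at 3 h (210.4 RPKM) and Trp53inp1 in plasmablasts (196 RPKM). Bax and Bbc3 were highest at 10 h and lower at 33 h, but their rises from 33 h to expanded B cells, 0.55 ± 0.10 and 0.51 ± 0.16, did not pass the 1.5-fold test. Trp53 itself rose by 1.3 ± 0.1 at 3 h and fell by 0.93 ± 0.10 from expanded B cells to plasmablasts.

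**Figure D5:**
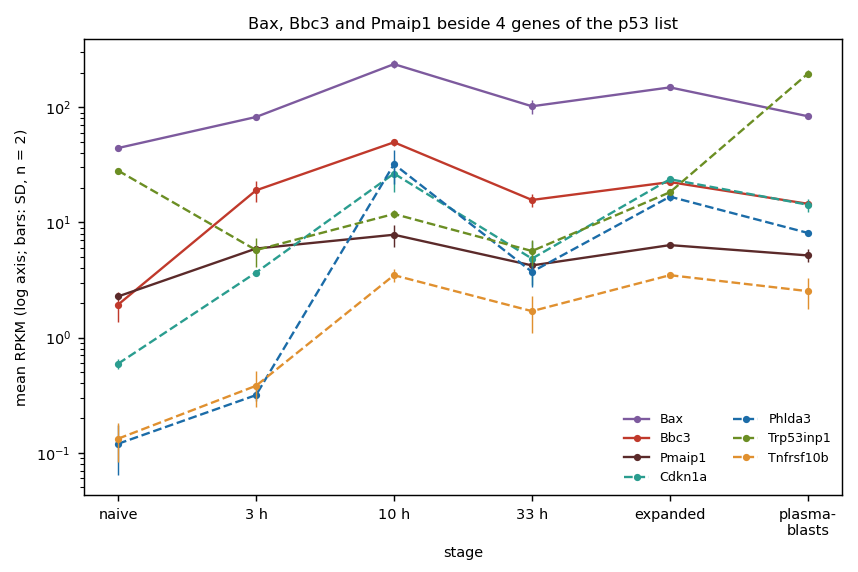
Mean RPKM (log axis, bars are SD over 2 libraries) of Bax, Bbc3 and Pmaip1 (solid lines) and of Cdkn1a, Phlda3, Trp53inp1 and Tnfrsf10b of the p53 list (dashed lines) by stage. By stage mean, all 7 are higher at 10 h than at 33 h, and 6 of them are lower in plasmablasts than in expanded B cells, with Trp53inp1 the exception. For Pmaip1 the difference between the day 4 populations was not beyond its spread (edgeR F-test adjusted p = 0.12).

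Downstream of the mitochondrion, 14 genes of the apoptosome, the executioner caspases and the mitochondrial channels were tested. Of these, 3 rose and 3 fell from naive to 3 h, 5 rose and 0 fell from 3 to 10 h, 2 rose and 0 fell from 10 to 33 h, 0 rose and 1 fell to expanded B cells, and 0 rose and 2 fell to plasmablasts. The counts called, 6, 5, 2, 1 and 2 of 14, stand beside 45.3%, 30.8%, 14.5%, 10.6% and 26.1% of all tested genes, shares near the background in the first 3 comparisons and below it in the last 2. The caspase genes Casp9 and Casp6 were among those that fell at 3 h, by 2.71 ± 0.16 and 1.94 ± 0.13. Casp9, the caspase that the apoptosome activates, was at 11.2 RPKM in naive cells, 1.74 RPKM at 3 h and 4.21 RPKM in plasmablasts.

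Among 5 tested inhibitor of apoptosis genes, 1 rose and 1 fell in each of the first 2 comparisons, 1 rose from 10 to 33 h, none was called from 33 h to expanded B cells and 1 rose to plasmablasts. Over the same comparisons 45.3%, 30.8%, 14.5%, 10.6% and 26.1% of all tested genes were called. Birc5, which encodes survivin and is known for its rise in dividing cells, rose by 4.48 ± 0.20 from 10 to 33 h, to 26.6 RPKM. Birc3, an NF-kB target, rose by 1.32 ± 0.09 at 3 h and fell by 1.65 ± 0.09 by 10 h. Naip5 fell by 1.47 ± 0.31 at 3 h, from 0.925 to 0.332 RPKM. In the death receptor list of 8 genes, of which Fas and Tnfrsf10b also stand in the p53 list, 2 rose and 2 fell in each of the first 2 comparisons, 1 fell from 10 to 33 h, none was called to expanded B cells and 1 rose to plasmablasts. The 4 of 8 called at 3 h stand beside 45.3% of all tested genes, and the 4 of 8 called from 3 to 10 h beside 30.8%. The counts of the later comparisons stand beside 14.5%, 10.6% and 26.1%. Fas, which starts the extrinsic pathway, was at 2.35 RPKM in naive cells, 14.6 RPKM at 3 h and 5.19 RPKM at 10 h. Tnfrsf1a had 103 and 45 counts in naive cells and none at 3 h, a fall that went with that of the 7 myeloid markers, all of which were called lower at 3 h, and their part in it was not tested.

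Of 14 listed regulators of the family, 11 were tested, of which 6 rose and 2 fell at 3 h, 1 rose and 4 fell by 10 h, 1 rose and 3 fell by 33 h, 1 rose and 2 fell by the expanded stage and 2 rose and 1 fell by the plasmablast stage. The counts called, 8, 5, 4, 3 and 3 of 11, stand beside 45.3%, 30.8%, 14.5%, 10.6% and 26.1% of all tested genes. Myc, which is known to sensitise cells to apoptosis, was at 31.1 and 28.9 RPKM in naive cells, 835 and 706 RPKM at 3 h and 138 and 139 RPKM at 10 h, and rose by 4.68 ± 0.13. Atf4, a factor of the stress response, rose by 3.08 ± 0.13 at 3 h, and Ddit3, its target gene, fell by 2.64 ± 0.22 from 10 to 33 h.

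The genes whose log2 CPM were most like those of each member other than Bcl2 over the 12 libraries were sought among the 5608 tested genes whose log2 CPM averaged 5 or more, with Pearson's r as the measure. Pim1 (0.993) was nearest to Bcl2l1, Cmtm7 (0.977) to Mcl1, Gtpbp4 (0.993) to Bcl2a1b, Ncl (0.993) to Bcl2a1d, Rheb (0.981) to Bcl2l11, Niban1 (0.988) to Bbc3, Itsn1 (0.927) to Pmaip1, Rps27a (0.963) to Bax and Ccne1 (0.983) to Bak1. The second nearest were Nus1, Tmc6, Pdcd11, Rrp9, Sin3b, Gclm, Nemf, Mrpl21 and Arhgap19 in the same order. The 12 libraries are 6 pairs of replicates, so that a correlation of this size rests on few independent points.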

How the data were processed

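RNA-Seq was measured in 12 libraries (81 bp paired-end, TruSeq, NextSeq). The authors aligned reads to mm10 with Rsubread and obtained the deposited counts with featureCounts and its inbuilt Entrez annotation, and these are neither normalized nor filtered. Each of the 12 per-sample files was equal to its column in the series table. Symbols and coordinates were matched by Entrez Gene ID to RefSeq (GRCm38.p6).

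After the study's methods, genes on the sex chromosomes or the mitochondrial genome, ribosomal RNA, immunoglobulin variable segments and unannotated IDs were removed, leaving 23700 genes and 84.0% to 90.6% of the counts, and filterByExpr kept 12750. TMM, a robust quasi-likelihood fit (edgeR 4.0.16, R 4.3.3) to all 12 libraries in a one-way layout, glmTreat against 1.5-fold and the F-test were used, with Benjamini-Hochberg adjustment over all tested genes at 0.05, and the steps were tested on simulated data. SE is the log2 fold change over the square root of F. RPKM used the deposited exon lengths and TMM-scaled library sizes, and CPM the total counts. Log2 CPM for correlations had a prior count of 2. Sequences were aligned with Biopython 1.88.

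The genes named were all 10 members, up to 3 called genes of each list with the largest change between consecutive stages (for the other family members, all tested), and the 2 genes most like each member. Members and lists were chosen with earlier results of these data known. Replicate numbers were given by the labels. Replicates of a stage differed by more than sampling noise. DESeq2 1.42.0 was an alternative. Some genes that the naming rule selects are not reported here.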

Additional observations from a re-analysis of the deposited data

How the results depend on the processing

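The alternatives were other scalings (DESeq2's size factors, library size alone), DESeq2's Wald test, other filters on low counts (none, at least 10 counts in every library), fits without robust mode, with the newer quasi-likelihood method or with only the 4 libraries compared, the removed gene classes kept, the copies of Bcl2a1 summed, a term for the replicate number, and leaving out each library. With the copies summed, the summed gene stood for both Bcl2a1b and Bcl2a1d in the counts below. Its difference between naive cells and plasmablasts (-1.08) passed and is set there against that of each copy, of which Bcl2a1d alone did not pass. The number of members called stayed within 1.5 times its value in each comparison except under the F-test without a fold threshold, which called 7 from 10 to 33 h in place of 3 and 9 from 33 h to expanded B cells in place of 2. Without 1 library at a time the 7 comparisons gave 8 to 8, 7 to 8, 3 to 4, 2 to 2, 5 to 6, 8 to 8 and 7 to 7 called, and 29 to 34 neighbouring pairs that differed. Of 1620 refitted fold changes, 1594 kept their direction and side of the threshold, 12 came to pass it, 7 ceased to, and 7 changed sign. Those 7 were all of Mcl1 between naive cells and plasmablasts, at 0.01 as reported, which came to -0.28 with library size alone, -0.028 with no filter, -0.0015 with removed classes kept, -0.037 with only the 4 libraries, and -0.020, -0.026 and -0.017 without replicate 2 of naive cells, 3 h or plasmablasts (-0.026 to 0.048 over all libraries left out). None of these values passed a test, and the cause was not tested.

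Library size alone moved the median of all genes by -0.24 from naive to 3 h, 0.35 from 3 to 10 h, -0.38 from expanded B cells to plasmablasts and -0.26 from naive to plasmablasts, against -0.05 to 0.03 with TMM. With it, Bax from naive to 3 h (0.69, adjusted p = 0.12) and from naive to plasmablasts (0.63, 0.23) and Bcl2a1d from 3 to 10 h (-0.78, 0.079) no longer passed, while Bak1 from 3 to 10 h (0.81, 0.013), Bbc3 from expanded B cells to plasmablasts (-0.97, 0.023) and Bcl2a1d from naive to plasmablasts (-0.89, 0.026) did.

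The correlations of same-numbered deviations over the 15 pairs of stages ran from -0.139 to 0.084, none over 0.1. They cannot show whether same-numbered samples shared a mouse or a culture, which the sources used here do not give. The replicate block, a term for the replicate number in the fit, left 8, 7, 3, 2, 6, 8 and 7 members called in the 7 comparisons, as without it, and 31 neighbouring pairs that differed. The crossed replicate block for 3 to 10 h, added after seeing the data, gave 7. Whether read pairs were counted once is not given in the sources used here, and 2 libraries a stage limit the precision of every value.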
